A study of Mus musculus with 4 samples.

Results

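Mitochondrial ribosomal proteins are encoded in the nucleus, made on cytosolic ribosomes and imported into mitochondria, where they assemble with mitochondrial ribosomal RNA into a large and a small subunit. The finished mitoribosome makes the few membrane proteins of the respiratory chain that the mitochondrial genome encodes. Inherited defects in several of its proteins cause cardiomyopathy. The proteins fall into those with kin in the bacterial ribosome and those found only in mitochondria. The genes described here are the 72 whose symbol is Mrpl or Mrps followed by a number and, where present, a or b. They were 72 of 11237 gene symbols listed in either tissue, and all 72 were listed in both. By place in the particle 47 belong to the large subunit and 24 to the small subunit. Mrps18a and Mrps30 were counted with the large subunit, where their proteins sit in spite of the names. Mrps36 carries the name but encodes a subunit of the oxoglutarate dehydrogenase complex, and it was kept because the symbol rule takes it.

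Ribosome-protected fragments (RPF), the pieces of mRNA that a translating ribosome covers, and total RNA depleted of ribosomal RNA were sequenced from the heart and from a fast muscle of the lower leg, the tibialis anterior (TA). The mice were C57BL/6J males at 10 weeks of age, and the labels name no drug, transgene or deletion. There was 1 library of each kind per tissue and 4 in all, and whether animals were pooled was not given in the sources used here. With no second library in any group there was no replicate check and no test. Genes were called higher or lower by a size rule of at least 2-fold, and the 95% intervals given cover counting error only.

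Values were scaled reads (RPM) on the coding sequence, the 5′ UTR or the 3′ UTR of 1 transcript model per gene. Coding values alone summed to between 993727 and 998101 RPM per library. The 3′ UTR added 367646 RPM in heart RNA and 299059 in TA RNA. The scale was thus close to the coding total of each library, not to its mapped total. The steps between low values put the coding reads of the RPF libraries at about 28120000 (heart) and 28530000 (TA), and those of the RNA libraries at about 9280000 (heart) and 16050000 (TA). The 9 heart markers, such as Tnnt2, summed to 109722 RPM of coding RNA in heart and 246 in TA, where Myh6, Nppa and Ryr2 were not listed. The 9 fast muscle markers, such as Tnnt3, summed to 182 in heart, where Myh4, Actn3 and Ryr1 were not listed, and 197573 in TA. In RNA the share of the 50 most abundant genes was 36.8% in heart and 58.1% in TA.

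The 72 genes together took 0.406% of heart coding RPF (95% Wilson bounds 0.403 and 0.408) and 0.238% of TA coding RPF (0.236 and 0.240). Their part of coding RNA was 0.343% in heart (0.339 and 0.347) and 0.207% in TA (0.205 and 0.209). Their share was larger among footprints than among RNA in both tissues. In heart, cytosolic ribosomal proteins made up 1.21% of RPF against 1.66% of RNA, and nuclear-encoded subunits of the respiratory chain and ATP synthase (OXPHOS) 7.76% against 5.51%.

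Levels of different genes were compared per kilobase of coding sequence. The median of the 72 was 78.8 RPM per kilobase of RPF and 62.7 of RNA in heart, and 44.7 of RPF and 37.7 of RNA in TA. For every gene whose RNA reached 1 RPM the same medians were 9.86, 15.0, 7.65 and 9.94. All 72 genes passed that minimum in both tissues. The SD of log2 levels per kilobase was between 0.91 and 1.02 over the 4 libraries, and 0.91 in heart RNA and 1.01 in TA RNA. For cytosolic ribosomal proteins it was 0.63 in the RNA of both tissues, but 0.95 and 1.06 in heart and TA RPF, as wide as in the members. The medians of large-subunit and small-subunit genes were 84.0 and 74.2 RPM per kilobase in heart RPF, 65.2 and 58.5 in heart RNA, 45.2 and 44.1 in TA RPF, and 40.3 and 28.6 in TA RNA.

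Mrps21, kin of bacterial S21, stood highest in RPF in both tissues. Its level per kilobase was 725 RPM of RPF and 202 of RNA in heart, and 601 of RPF and 158 of RNA in TA. Mrpl42, a mitochondria-specific protein of the large subunit, was highest in RNA. Its level per kilobase was 489 RPM of RNA and 103 of RPF in heart, and 327 of RNA and 155 of RPF in TA. Mrpl51, another mitochondria-specific large-subunit protein, followed in RNA with 329 RPM per kilobase in heart and 277 in TA, and its RPF was 159 and 235. The next in RNA were Mrpl30 in heart, at 284 RPM per kilobase, and Mrpl33 in TA, at 167. In heart RPF the places after Mrps21 were held by Mrpl12, Mrpl28 and Mrps35, at 330, 270 and 177 RPM per kilobase. In TA RPF they were held by Mrpl33, Mrpl51 and Mrpl42, at 255, 235 and 155.

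Mrps2, kin of bacterial S2, had 16.0 RPM of RPF and 17.1 of RNA per kilobase in heart, and 6.39 of RPF and 7.07 of RNA in TA, the lowest of the 72 in 3 of the 4 libraries. Mrps10 was lowest in heart RPF, at 12.2 RPM per kilobase, with 24.5 of RNA, and Mrps11 had 26.3 of heart RNA. Mrps6, whose protein lies on the platform of the small subunit, had low RNA (23.3 RPM per kilobase in heart and 10.4 in TA) but RPF of 149 and 69.2. Mrpl19 and Mrpl10 were the lowest large-subunit genes in TA, with 15.3 and 13.9 RPM of RPF and 11.2 and 14.0 of RNA per kilobase. In heart Mrpl19 had 24.9 of RPF.

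Mrpl3, Mrpl44 and Mrps22 are known as genes of mitochondrial disease. Mrpl3 had 134 RPM of RPF and 106 of RNA per kilobase in heart and 57.2 and 43.2 in TA. Mrpl44, a large-subunit protein with a fold like that of RNase III, had 54.0 and 62.1 in heart and 28.2 and 28.9 in TA. Mrps22 had 27.5 and 31.9 in heart and 16.9 and 18.7 in TA. Mrps12, kin of the bacterial decoding-site protein S12, had 26.2 and 41.4 in heart and 23.0 and 23.8 in TA. The log2 ratios of heart over TA were above 0 in both kinds of library for all 4. Most genes were above 0 on this scale, 8134 of 9843 in RNA and 7569 of 9843 in RPF, with medians of 0.70 and 0.60. The Mrps12 RPF ratio (0.19, from -0.05 to 0.43) was below that of the median gene, and its counting interval held 0.

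**Figure D1:**
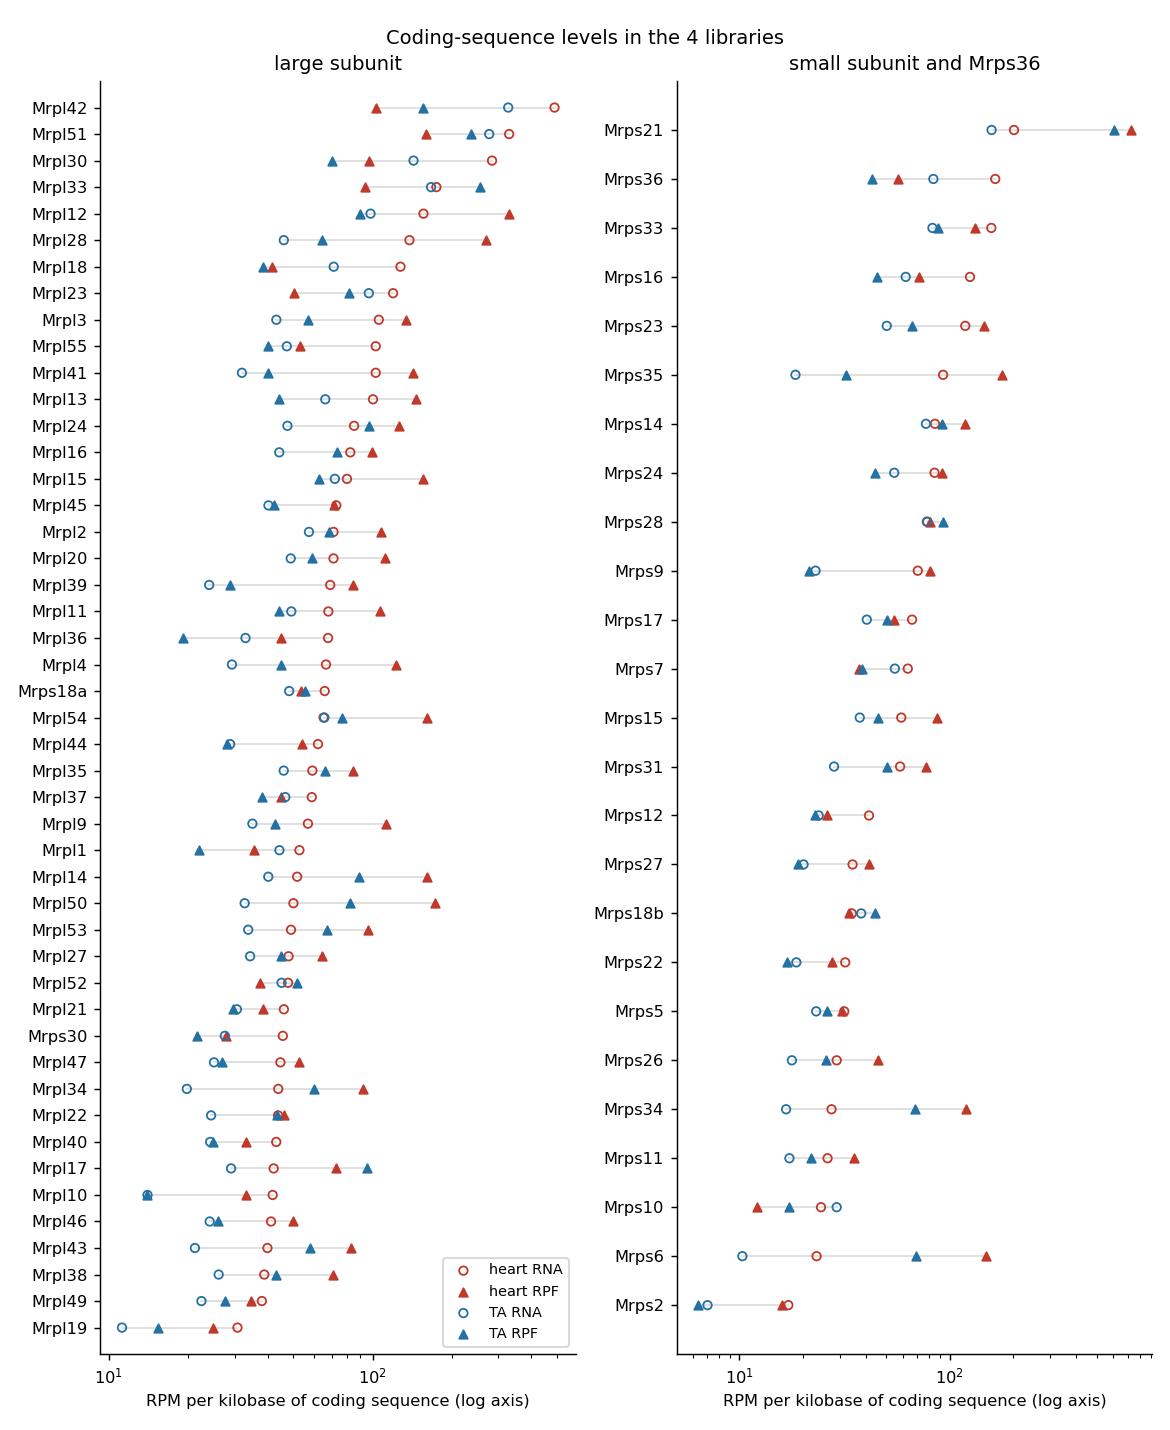
Coding-sequence level of each of the 72 genes in RPM per kilobase (log axis), for RNA (open circles) and RPF (triangles) in heart (red) and TA (blue), 1 library each, with large-subunit genes on the left and small-subunit genes and Mrps36 on the right, ordered by heart RNA. Mrps21 has the highest RPF in both tissues (725 and 601), and Mrpl42 the highest RNA (489 and 327) with RPF below its RNA.

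Translational efficiency, the RPF of a coding sequence relative to its RNA, was computed on the log2 scale after adding 0.1 RPM to each value, and the median gene of the tissue was set to 0. In heart 23 of the 72 lay 2-fold or more above that gene and 4 lay as far below it. Over all genes these shares were 16% above and 17.8% below. In TA 13 of the 72 were above and 0 below, against 15.4% and 18.7% over all genes. The median of the 72 was 0.68 in heart and 0.48 in TA, and 57 and 59 of them lay above the median gene. Efficiency ran the same way in both tissues over the 72 genes (Pearson r = 0.80, Spearman rho = 0.72, n = 72). Over 9635 genes the values were higher, 0.88 and 0.87. Both are descriptions over genes that share their sequence and length between tissues.

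Short coding sequences tended to have higher efficiency in these libraries. Over all genes efficiency and log coding length had r = -0.38 in heart and -0.36 in TA, and the median coding length of the 72 was 579 nt against 1422 over all genes. Genes of like coding length (430 to 871 nt, from the first to the last quartile boundary of the members) had a median efficiency of 0.50 in heart and 0.46 in TA, with 29.4% and 27.2% at least 2-fold above the median gene. The 36 members in that range had medians of 0.72 and 0.51, with 13 and 7 past 2-fold. With the trend in coding length removed, the medians of the 72 were 0.23 in heart and 0.04 in TA, with 12 above and 10 below in heart and 7 above and 6 below in TA. Over all genes the shares were then 13.7% above and 15.9% below in heart and 14.1% and 16.9% in TA, so the 12 of 72 above in heart were near the share of all genes. Within the 72 genes length and efficiency had r = 0.06 in heart and -0.14 in TA.

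Mrps6 had the highest efficiency of the 72 in both tissues. Its coding RPF was 55.37 RPM in heart against 8.67 of RNA, and 25.74 in TA against 3.85 of RNA. Its efficiency was 3.10 in heart (2.79 to 3.45) and 2.97 in TA (2.63 to 3.40), which is 8.58-fold and 7.83-fold above the median gene. The first exon of Mrps6 also belongs to Slc5a3, the gene of a myo-inositol transporter on the same strand, which shares 45 of the 378 nt of the annotated Mrps6 coding sequence. Another coding gene of that strand, Gm49711, shares 185 of these nt.

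Mrps34, a mitochondria-specific protein of the small subunit, came next. It had 77.76 RPM of RPF and 17.87 of RNA in heart, and 44.74 of RPF and 10.87 of RNA in TA. Its efficiency was 2.56 in heart (2.33 to 2.80) and 2.29 in TA (2.07 to 2.54). Mrps21 followed with 187.15 RPM of RPF and 52.12 of RNA in heart and 154.95 and 40.80 in TA, an efficiency of 2.28 in heart (2.15 to 2.42) and 2.18 in TA (2.07 to 2.31). These 3 small-subunit genes had the highest values in both tissues. The counting intervals of Mrps34 and Mrps21 overlapped, and that of Mrps21 also overlapped those of the large-subunit genes Mrpl50 (2.02 to 2.42) and Mrpl14 (1.87 to 2.29) in heart and Mrpl17 (1.77 to 2.17) in TA, so the third place was within counting error. The exons of Mrps34 overlap those of Mapk8ip3 on the opposite strand over 336 of 657 nt of coding sequence.

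The fourth place was held in heart by Mrpl50, a mitochondria-specific large-subunit protein, at 2.21, and in TA by Mrpl17, kin of bacterial L17, at 1.96. Mrpl50 had 81.55 RPM of RPF and 23.76 of RNA in heart, and 39.00 and 15.53 in TA. Mrpl17 had 38.29 and 22.15 in heart, and 49.81 and 15.28 in TA. Mrpl17 was 1 of 11 members with more coding RPF in TA than in heart.

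Mrpl42 was the least efficient in both tissues. Its coding RNA was 206.88 RPM in heart and 138.12 in TA, and its RPF 43.71 and 65.48, so that heart had more RNA and fewer footprints than TA. Its efficiency was -1.80 in heart (-1.91 to -1.70) and -0.82 in TA (-0.91 to -0.73). Mrpl18, whose bacterial kin holds the 5S ribosomal RNA in the central protuberance, had 22.28 RPM of RPF and 68.50 of RNA in heart and 20.71 and 38.26 in TA. Its efficiency was -1.18 in heart and -0.62 in TA. Mrpl30 had -1.10 and -0.76, and Mrps36 -1.09 and -0.70. Mrpl1, kin of the bacterial stalk protein L1, was among the lowest 4 in TA, at -0.75, and had -0.13 in heart.

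**Figure D2:**
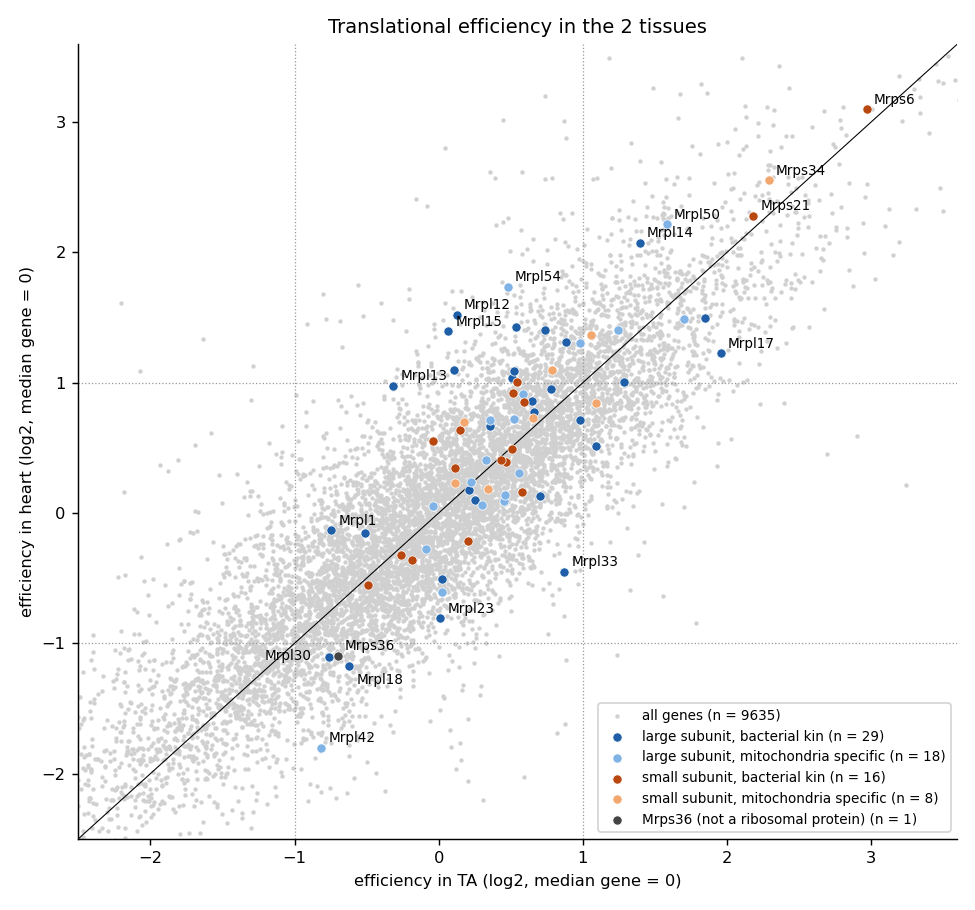
Translational efficiency (log2, median gene = 0) in heart (y axis) against TA (x axis) for all genes measured in both (grey) and the 72 genes, coloured by subunit and by bacterial kin or mitochondria-specific origin; dotted lines mark 2-fold, the solid line marks equal efficiency, and genes beyond the axis limits are not drawn. Mrps6 lies at the upper right (3.10 in heart, 2.97 in TA), Mrpl42 at the lower left (-1.80 and -0.82), and Mrpl12, Mrpl13, Mrpl15 and Mrpl54 above the line.

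Several of the low values belong to genes whose sequence is nearly repeated in a transcript of another annotated gene, where reads that fit both can be split or dropped. How such reads were treated was not given in the sources used here. In the GENCODE M21 annotation of GRCm38, 18 of the 72 coding sequences had such a copy, of at least 95% identity over at least 50% of their length. For Mrpl33, Mrpl43 and Mrpl53 the other gene (Gm43809, Twnk and Gm42688) overlaps the member itself. Of the 10 members lowest in heart efficiency 7 had such a copy (Mrpl42, Mrps36, Mrpl23, Mrpl51, Mrps10, Mrpl33 and Mrps16), and of the 10 highest 2 had one. In TA the counts were 4 and 3. The median efficiency was 0.29 in heart over the 18 with a copy and 0.72 over the 54 without, and 0.45 and 0.49 in TA. Mrpl18 and Mrpl30 had no copy, but 124 of 543 nt of the Mrpl18 coding sequence overlap exons of Tcp1 on the opposite strand. The kit named for the RNA libraries does not record strand, so RNA of these overlapping pairs cannot be told apart in them. In heart the median efficiency was 0.71 over the 21 members whose exons overlap another coding gene and 0.64 over the 51 without. In TA these medians were 0.54 and 0.47. The part of copies and overlaps in the efficiencies was not tested.

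By subunit, 17 of 47 large-subunit genes passed 2-fold upward in heart and 3 downward, and 6 of 24 small-subunit genes were above and 0 below. In TA the counts were 8 and 0 for the large subunit and 5 and 0 for the small. The medians were 0.71 and 0.60 in heart and 0.48 and 0.49 in TA. The 45 genes with bacterial kin and the 26 specific to mitochondria also had close medians, 0.67 and 0.71 in heart and 0.51 and 0.47 in TA. Of the members whose names or numbers mislead about place, Mrps18a had 0.14 in heart and 0.46 in TA, Mrps18b, its small-subunit relative, 0.39 and 0.47, and Mrps30 -0.27 and -0.09.

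The cytosolic ribosomal proteins, whose mRNAs are known for translational control through their 5′ ends, were set beside them. Their median efficiency was 0.03 in heart and -0.69 in TA, with 11 of 71 above 2-fold and 10 below in heart and 4 above and 25 below in TA. The OXPHOS subunits had medians of 0.90 in heart and 0.83 in TA, with 33 of 76 and 30 of 75 above and 0 and 2 below. The medians of the 72 genes, 0.68 and 0.48, lay between those of these groups in both tissues. Single genes overlapped widely. In heart the 72 ran from -1.80 to 3.10, cytosolic ribosomal proteins from -2.33 to 2.79 and OXPHOS subunits from -0.86 to 3.29. Near-identical copies were looked for in the 72 alone.

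**Figure D3:**
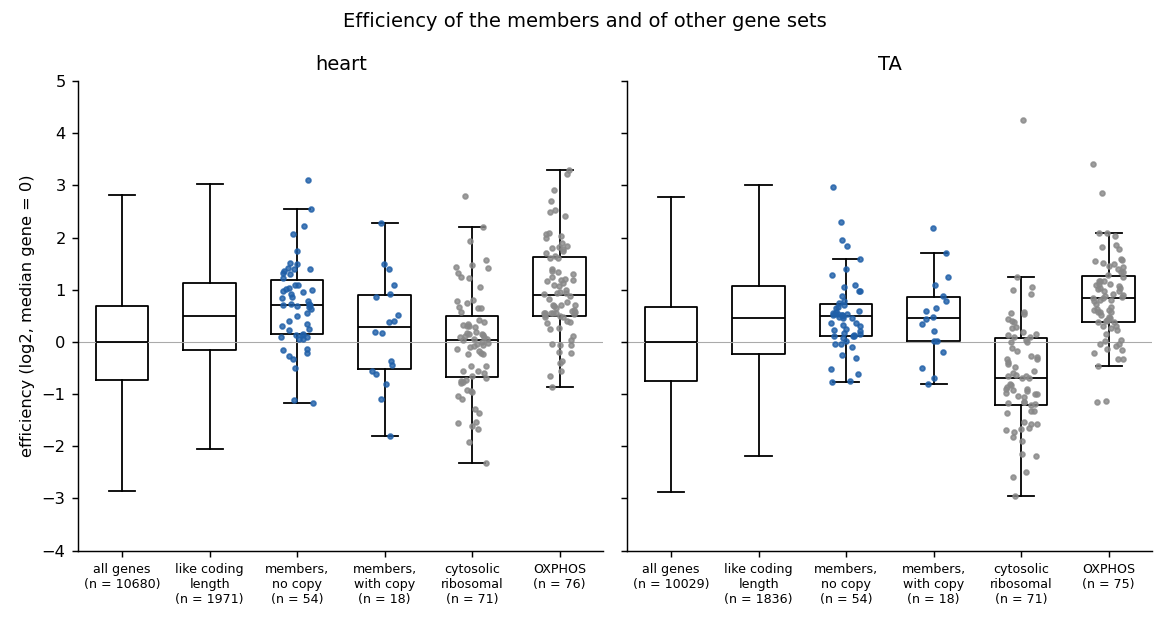
Efficiency (log2, median gene = 0) in heart and TA as boxes (median and quartiles, with whiskers to the last gene within 1.5 times the box height, axis limits at -4 and 5) for all genes, genes of like coding length, the members without and with a near-identical copy, cytosolic ribosomal proteins and OXPHOS subunits, with single genes as points for the last 4. The medians of the members are 0.72 without a copy and 0.29 with one in heart, and 0.49 and 0.45 in TA.

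Heart and TA were then compared as log2 of heart over TA on the RPM scale. On this scale most genes were higher in heart, with a median over all genes of 0.70 for RNA and 0.60 for RPF. The 72 genes had medians of 0.71 for RNA and 0.66 for RPF, and 39 of the 72 lay above the median gene in each. In RNA 18 were at least 2-fold higher in heart and 0 lower, against 35% and 3.88% of all genes. In RPF 21 were higher and 1 lower, against 30.1% and 5.06%. Relative to the median gene 1 was higher and 0 lower in RNA, and 6 were higher and 7 lower in RPF, against 13.5% and 10.4% of all genes in RNA and 11.9% and 12% in RPF. Without the 50 most abundant genes the median over all genes was 0.11 in RNA and 0.08 in RPF, and 3 members were at least 2-fold higher and 0 lower in RNA and 7 higher and 5 lower in RPF. The shares of all genes were then 15.9% and 8.84% in RNA and 13.7% and 10.7% in RPF. OXPHOS subunits had medians of 1.00 for RNA and 0.91 for RPF.

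In bulk tissue, more cells of a type and more RNA per cell cannot be told apart. All 8 endothelial markers were at least 2-fold higher in heart RNA (median 1.83), as were all 7 macrophage and leukocyte markers listed in both tissues (median 2.52). Of 6 fibroblast markers 1 was (median 0.23). On the same scale 35% of all genes were, with a median of 0.70. The part of cell composition in the members' ratios was not tested.

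Mrps35, a mitochondria-specific protein of the small subunit, had the largest difference between tissues. Its coding RNA was 89.05 RPM in heart and 17.70 in TA, and its RPF 169.54 and 30.85. RNA was 5.01-fold higher in heart, a log2 ratio of 2.32 with bounds of 2.14 and 2.53. RPF was 5.48-fold higher, a log2 ratio of 2.45 with bounds of 2.35 and 2.56. It was the one member at least 2-fold above the median gene in the RNA ratio (1.63 relative to it). Mrpl41, a mitochondria-specific large-subunit protein, had 41.31 RPM of RNA in heart and 12.86 in TA and RPF of 57.28 and 16.12 (log2 1.68 and 1.82). Mrps9, kin of bacterial S9, had 82.30 and 26.89 of RNA and 94.44 and 24.90 of RPF (1.61 and 1.92). Mrpl28 had 105.96 and 35.40 of RNA and 207.24 and 49.42 of RPF (1.58 and 2.07). In all 4 genes both RNA and footprints were more than 2-fold higher in heart.

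At the other end 4 members had as much or more RNA in TA than in heart by this scale, none of them by 2-fold. Mrps10 had 11.67 RPM of RNA in heart and 13.85 in TA, a log2 ratio of -0.25 (-0.59 to 0.09). Mrps18b had 26.01 and 28.82, a log2 ratio of -0.15 (-0.38 to 0.08). Mrpl54 and Mrps28 each had -0.01. All 4 intervals held 0. In RPF the lowest were Mrpl33 (-1.44), Mrpl23 (-0.69), Mrpl42 (-0.58) and Mrpl51 (-0.56), each with a near-identical copy. Their RNA ratios were 0.07, 0.30, 0.58 and 0.25, above 0 but below the 0.70 of the median gene. The interval of the Mrpl33 RNA ratio (-0.14 to 0.27) held 0. Across the 72 genes the RNA and RPF ratios had r = 0.65 and rho = 0.54, against 0.88 and 0.79 over 9635 genes, a description over genes that share the same 4 libraries.

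**Figure D4:**
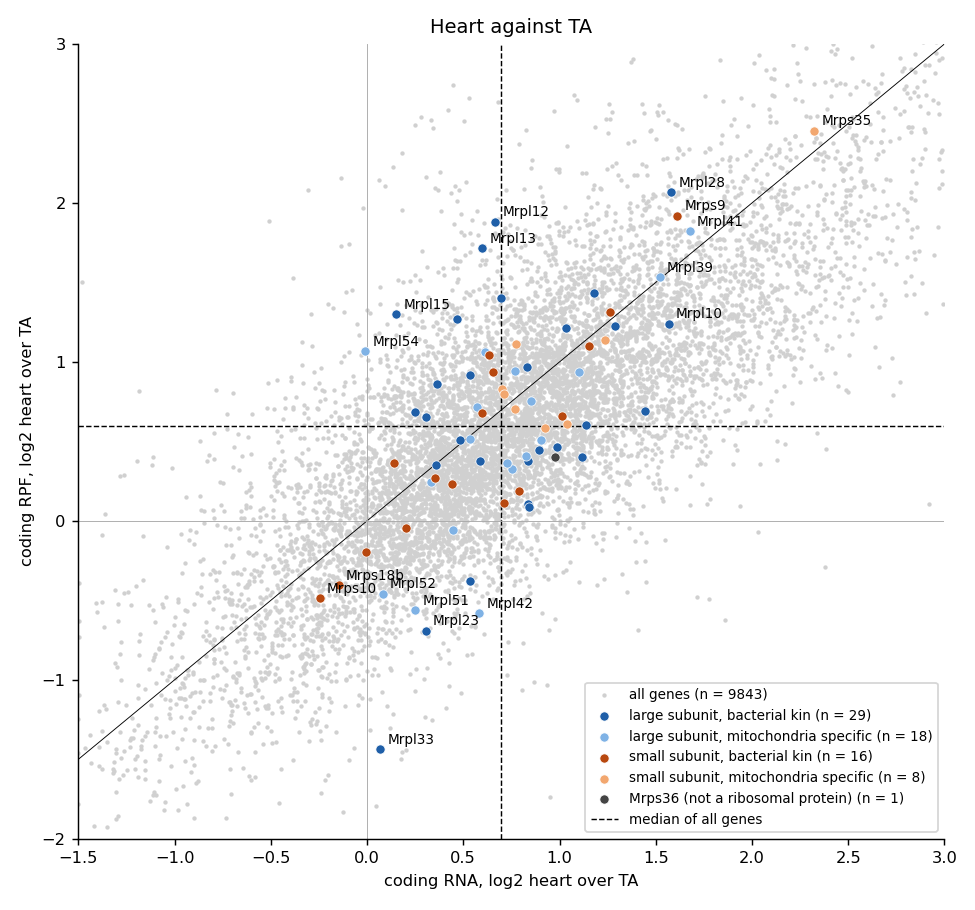
Log2 ratio of heart over TA for coding RNA (x axis) and coding RPF (y axis) for all genes (grey) and the 72 genes, coloured as in the plot of efficiency; dashed lines mark the median of all genes (0.70 and 0.60), the solid line marks equal ratios, and genes beyond the axis limits are not drawn. The 72 genes spread around the median gene, with Mrps35 highest in both ratios (2.32 and 2.45) and Mrpl33 lowest in RPF (-1.44).

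Efficiency itself differed by at least 2-fold between the tissues in 5 of the 72 genes, 4 higher in heart and 1 lower, against 4.07% and 2.34% of all genes. The median of the 72 was 0.10 and that of all genes 0.01. The 4 higher in heart were Mrpl12, Mrpl15, Mrpl13 and Mrpl54, and the 1 lower was Mrpl33. All 5 belong to the large subunit, as do 47 of the 72. None of the 24 small-subunit genes passed, and their differences ran from -0.42 to 0.59. The shares over all genes leave few in a list of 24, so these counts do not set the subunits apart.

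Mrpl12 is the kin of bacterial L7/L12, the mobile arm of the stalk that recruits translation factors. Its coding RPF was 198.03 RPM in heart and 53.65 in TA, while its RNA was 93.54 and 58.94. RPF was 3.69-fold higher in heart and RNA 1.59-fold. Efficiency was 1.52 in heart and 0.12 in TA, a difference of 1.40 (1.24 to 1.55). Mrpl15, kin of a protein that reaches into the core of the bacterial large subunit, had RPF of 136.88 RPM in heart and 55.47 in TA with RNA of 70.53 and 63.47. Its efficiency differed by 1.33 (1.16 to 1.49).

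Mrpl13, kin of bacterial L13, had RPF of 77.44 RPM in heart and 23.54 in TA, and 53.30 and 35.15 of RNA. Its efficiency lay above the median gene in heart (0.98) and below it in TA (-0.32), a difference of 1.29 (1.08 to 1.51). Mrpl54, a mitochondria-specific protein, had 64.54 and 30.74 RPM of RPF with RNA of 26.22 and 26.39, nearly equal in the tissues, and its efficiency differed by 1.26 (1.00 to 1.51). In these 4 genes the RNA ratio, from -0.01 to 0.67, was below the 0.70 of the median gene, and the RPF ratio ran from 1.07 to 1.88. The 4 were called by an RPF ratio high relative to the RNA ratio, so a gap between these ratios was fixed by the choice. None of the 4 had a near-identical copy, and the coding sequence of Mrpl12 shared 73 of 606 nt with the exons of Gm16755, a noncoding gene on the opposite strand.

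Mrpl33, kin of a small protein of the bacterial large subunit, ran the other way. Its RPF was 18.03 RPM in heart and 48.97 in TA, against RNA of 33.50 and 31.98. Efficiency was -0.45 in heart and 0.87 in TA, a difference of -1.32 (-1.57 to -1.07). A transcript of the same strand and identical sequence, Gm43809, shares 148 of the 198 nt of its coding sequence. The values just inside and outside the 2-fold rule were 1.26 for Mrpl54 and 0.99 for Mrpl11 on the upper side, and -1.32 for Mrpl33 and -0.98 for Mrpl42 on the lower, where Mrpl23 (-0.82) and Mrpl17 (-0.73) followed.

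Mrpl11 and Mrpl54 belong with Mrpl10, Mrpl12 and Mrpl53 to the stalk and its base. The efficiency differences of these 5 genes were 1.40 for Mrpl12, 1.26 for Mrpl54, 0.99 for Mrpl11, 0.16 for Mrpl53 and -0.15 for Mrpl10, with a median of 0.99. Their median efficiency was 1.40 in heart and 0.25 in TA. The 5 listed genes of the central protuberance had a median difference of -0.24 (from -0.55 to 0.35), and the 6 around the exit of the polypeptide tunnel -0.13 (from -0.82 to 0.31), with none past 2-fold in either. The stalk genes were grouped with these values known and their median is a description.

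Footprints before the start codon can come from ribosomes that initiate upstream of it. In most of the 72 genes there were few. No RPF was listed on the 5′ UTR in 31 of the 72 in heart and 37 in TA, which at this depth allows up to 0.106 and 0.105 RPM each, and 17 and 10 had at least 1 RPM. The 6 with the most (Mrps21, Mrpl16, Mrpl18, Mrpl30, Mrps17 and Mrpl3) held 85.2% of the 245.94 RPM of all 72 in heart. In TA 6 genes, with Mrpl51 in place of Mrpl3, held 92.7% of 159.09 RPM. Among the 50 members with a 5′ UTR of at least 30 nt, the density of footprints per nt reached that of the coding sequence in 4 in heart and 3 in TA, against 16.6% and 12.1% of all genes. The median ratio of the densities was 0.056 in heart and 0.023 in TA, against 0.208 and 0.134 over all genes. The median 5′ UTR of the 72 was 52.5 nt long and that of all genes 155 nt, so a larger part of it lies within a footprint's reach of the start codon. How reads across that boundary were assigned was not given in the sources used here.

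Short stretches around the start codon (first line of each pair) and around an upstream ATG within the listed 5′ UTR length (second line) are shown for the genes with the most 5′ UTR footprints that hold such an ATG, with the ATG in capitals. They were read 5′ to 3′ from the GENCODE M21 transcripts of GRCm38, a later build than the mm9 named in the submitters' processing notes.
Mrps21 start: tacgaggccATGgctaaacat
Mrps21 upstream: cccggaagaATGaagatttaa
Mrpl18 start: ccgtcagccATGgcgcttcgg
Mrpl18 upstream: acagttaacATGgctgcgact
Mrps17 start: agacacataATGtcaatagtc
Mrps17 upstream: gctgcgcccATGctccgccgg

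The upstream ATG of Mrps21 (chr3:95870587-95870607, minus strand) begins 22 nt before the start codon and opens a frame of 3 codons, closed by the TAA at the end of the stretch shown. Its distance is shorter than a footprint. That of Mrpl18 (chr17:12916071-12916091, minus strand) begins 84 nt before the start and opens a frame of 11 codons that closes before it. That of Mrps17 (chr5:129715509-129715529, plus strand) begins 276 nt before the start and opens a frame of 27 codons, also closed. The model used for Mrpl18 matched the listed coding length but not the listed 5′ UTR length, whereas those of Mrps21 and Mrps17 matched both.

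Mrpl18 was the one gene of the 72 with more footprints before the start codon than after it. Its 5′ UTR held RPF of 42.72 RPM in heart and 48.90 in TA, on 93 listed nt, while its coding sequence held 22.28 and 20.71. The 5′ UTR share in heart was 65.7% (95% Wilson bounds 63.5 and 67.9), and in TA it was 70.2% (68.2 and 72.2). In RNA the 5′ UTR took 6.29% and 7.09%. The density of footprints on it was 11.1 times that of the coding sequence in heart and 13.6 times in TA. Mrpl18 was also the gene with the second lowest efficiency in heart.

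Mrps21 held 64.44 RPM on a 5′ UTR of 43 nt in heart and 67.65 in TA, a share of 25.6% (24.6 to 26.6) and 30.4% (29.3 to 31.5). In contrast with Mrpl18, its efficiency was among the highest. Mrpl16, kin of bacterial L16, has no upstream ATG within the listed 5′ UTR length, the part of the model that was searched. It starts at cgcgtggccATGtggaggctg (chr19:11770461-11770481, plus strand, ATG in capitals), shown because its 5′ UTR footprints differed most in amount between the tissues. It held 51.30 RPM in heart and 13.05 in TA, a share of 40.7% (39.1 to 42.3) and 19.2% (17.5 to 21.0), with 1.50 and 0.81 RPM of 5′ UTR RNA. Mrps17, kin of bacterial S17, held 15.30 and 5.21 RPM, a share of 44.0% (40.9 to 47.1) and 22.5% (19.5 to 25.8). Mrpl30 held 21.36 and 8.04 RPM, 31.6% (29.5 to 33.7) and 19.3% (17.2 to 21.7). The listed 5′ UTR of none of Mrps21, Mrpl16, Mrpl18, Mrpl30, Mrps17 and Mrpl3 overlapped an exon of another annotated gene, in the models used. The Mrpl30 model had a 5′ UTR of 79 nt against 139 listed, so only those 79 nt were checked.

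Between the tissues, 5′ UTR footprints could be compared in 16 of the 72 genes, those with a mean of at least 1 RPM, a minimum chosen after the values were seen. A gene could reach this mean through a single tissue, as Mrpl39 and Mrps6 did through heart (0.45 RPM each in TA). The minimum itself therefore bears on the counts and on the largest ratios. Of the 16, 10 were at least 2-fold higher in heart and 0 lower, against 49.9% and 5.75% of 2746 genes under the same minimum. The median of the 16 was 1.53 and that of all genes 0.99, and relative to the coding RPF of the same gene the medians were 1.03 and 0.47. The gene with the largest ratio was Mrpl39, a mitochondria-specific large-subunit protein, with 5.38 RPM in heart and 0.45 in TA (a log2 ratio of 3.32, from 2.75 to 4.51). Mrpl3 had 14.31 and 1.43 RPM (3.24, from 2.85 to 3.82), and Mrps6, whose 5′ UTR lies wholly in exons of Slc5a3 and Gm49711, 4.32 and 0.45. The lowest ratios were -0.47 in Mrpl51 (-0.88 to -0.09), with 3.33 RPM in heart and 4.65 in TA, and -0.36 in Mrpl37, -0.19 in Mrpl18 and -0.10 in Mrpl42. Mrps21, with the most in both tissues, had -0.07. The 5′ UTR footprints of all listed genes together came to 28026 RPM in heart and 13610 in TA, and the part of the libraries' own difference in these ratios was not tested.

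**Figure D5:**
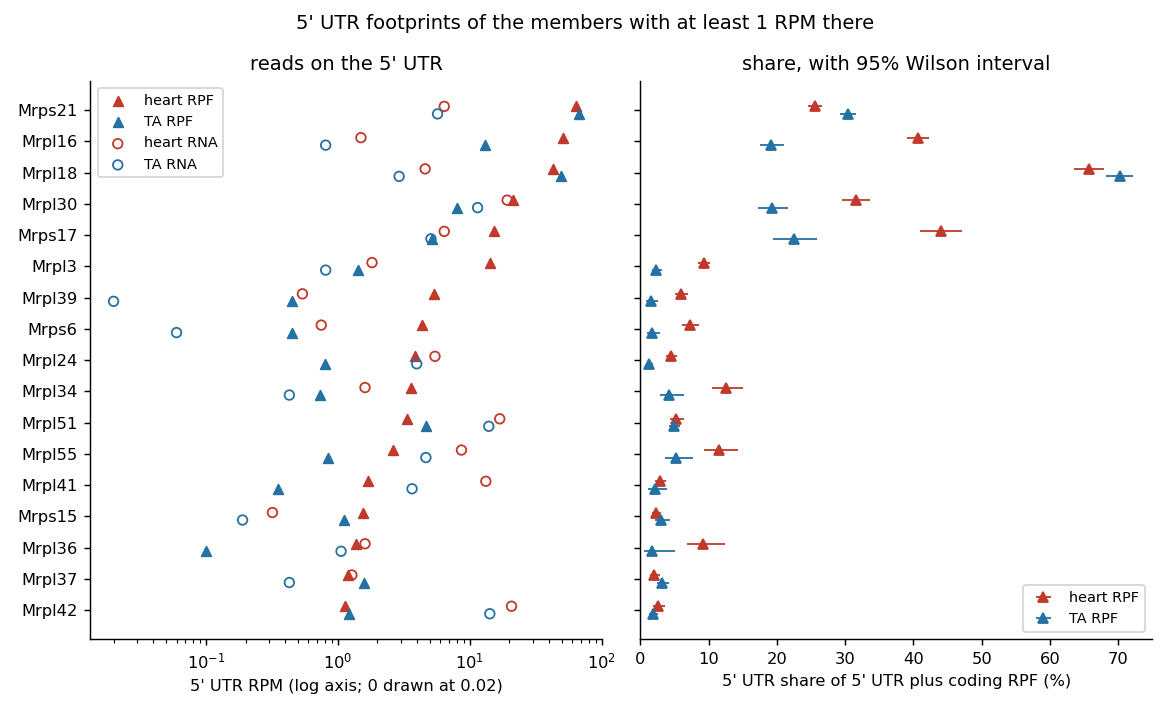
Left, 5′ UTR reads in RPM (log axis, zeros drawn at the left edge) for the 17 genes with at least 1 RPM of 5′ UTR RPF in either tissue, for RPF (triangles) and RNA (circles) in heart (red) and TA (blue); right, the 5′ UTR share of 5′ UTR plus coding RPF in percent with its Wilson interval. Mrpl18 has shares of 65.7% and 70.2%, and Mrpl16 of 40.7% in heart and 19.2% in TA.

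An upstream ATG lay within the listed 5′ UTR length in 15 of the 72 genes. The median 5′ UTR share of RPF was 2.27% in heart and 3.09% in TA over these 15, and 0% in both over the 57 without one. Their median efficiency was 0.64 and 0.15, against 0.70 and 0.48. The listed 5′ UTRs of the 15 ran from 43 nt in Mrps21 to 297 nt in Mrps17. Every member with a listed 5′ UTR under 30 nt was among the 57, down to 2 nt in Mrps5. The part of 5′ UTR length in these contrasts was not tested. At the start codon itself 68 of the 72 had a purine 3 nt before the ATG, and 48 had this and a G after it. The median efficiency of these 48 was 0.45 in heart and 0.40 in TA, and that of the other 24 was 0.99 and 0.63. The model matched the listed 5′ UTR length in 17 of the 72. In some of the 57 it was shorter than listed, as in Mrpl30 (79 nt against 139), so an upstream ATG there could be missed.

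The promoters were read from a RefSeq table of GRCm38.p6, from 250 nt before to 50 nt after the annotated start. It matched 63 of the 72 genes. The letters CCGGAAG, a core of binding sites for ETS-family factors such as GABP, were present on either strand in 22 of them (34.9%), against 20.3% of 8595 protein-coding genes listed in heart. AAGATGGCG, the core of YY1 sites, was in 8 (12.7%), against 3.63%. Where it lies after the start of transcription it can hold a start codon, since ATGG is part of it. The NRF1 sequence, GCGC and TGCGC with any base between, was in 11 (17.5%), against 11.9%. At least 1 of the 3 was in 57.1% and 31.9%, and in 52.8% of cytosolic ribosomal proteins and 51.6% of OXPHOS subunits. NRF1 and GABP are known as activators of nuclear genes for mitochondrial proteins. Stretches of 3 promoters are shown because they belong to genes the results turn on, with the motif in capitals (NRF1 for Mrpl12 and Mrps21, ETS for Mrpl3), from the promoters at chr11:120484387-120484686, chr3:95871465-95871764 and chr9:105053018-105053317.
Mrpl12 promoter: tattgtctccGCGCCTGCGCgtcgcaccgc
Mrps21 promoter: ggaaagtccaGCGCCTGCGCtcagcaccga
Mrpl3 promoter: gagaaacggaCCGGAAGtggcccggct
In Mrpl12 the motif begins 81 nt before the start of transcription, in Mrps21 91 nt and in Mrpl3 19 nt.

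Other genes of mitochondrial translation were taken from lists by function. Of 7 mitoribosome proteins with other symbols, 2 were at least 2-fold above the median gene in heart efficiency and 0 below. Over all genes the shares were 16% and 17.8%. Gadd45gip1, a large-subunit protein, had 1.74 and was listed in heart alone, and Ict1, a release factor homologue built into the large subunit, had 1.13. The lowest were Dap3, a GTP-binding protein of the small subunit, at 0.28 and Mrp63 at -0.28. None of the 6 listed in both tissues passed 2-fold in the efficiency difference, where 4.07% of all genes were higher in heart and 2.34% lower.

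Of 13 mitochondrial translation factors, 6 were at least 2-fold higher in heart RNA and 0 lower, with a median of 0.83, beside 35% of all genes higher and a median of 0.70. Their median efficiency was 0.27 in heart. In it 1 was at least 2-fold above the median gene and 1 below, against 16% and 17.8% of all genes. Tufm, the elongation factor that delivers tRNA, had a coding RPF of 298.14 RPM in heart and 135.89 in TA with RNA of 191.36 and 80.98, and its efficiency was 1.08 in heart. Taco1, an activator of Cox1 translation, had 0.95. Mtif2, the initiation factor, had the lowest at -1.31, and Guf1 had -0.71. For 17 listed factors of mitoribosome assembly and ribosomal RNA modification the median RNA ratio was 0.73, with 3 at least 2-fold higher in heart, against the same 35%. Their heart efficiency ran from 2.03 in Ftsj2 and 1.69 in Mtg1 to -0.99 in Gtpbp5 and -2.25 in Fastkd2.

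The 16 mitochondrial tRNA synthetases had a median RNA ratio of 1.17, with 9 at least 2-fold higher in heart against 35% of all genes. Their median heart efficiency was -0.05, with 0 at least 2-fold above or below, against 16% and 17.8% of all genes. Sars2 and Tars2 had the highest efficiency, 0.91 and 0.71, and Cars2 and Wars2 the lowest, -0.51 and -0.49. The 9 listed genes of mitochondrial transcription and RNA handling had a median RNA ratio of 0.84, with 4 at least 2-fold higher in heart against 35% of all genes, and a median efficiency of -0.36. Elac2, the tRNA 3′ end nuclease, had 1.05 and Tfb2m, the transcription initiation factor, 0.57, and Mtpap and Pnpt1 had -0.88 and -0.99. None of these 4 lists had a gene past 2-fold in the efficiency difference between the tissues. Over all genes 4.07% were higher in heart and 2.34% lower, shares that leave few genes in lists of this size.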

How the data were processed

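Per the labels' protocols, frozen tissue was lysed with cycloheximide. Part of the lysate gave total RNA, from which ribosomal RNA was removed, and RNase I digestion of the remainder gave RPF. Per the labels, the RPF mapping was to RefSeq transcripts. The submitters' processing notes name Bowtie, without a version, and the build mm9. The deposited values are RPM, per the file headers, and the authors list part lengths beside them without dividing by length. The coding columns summed to between 993727 and 998101 RPM.

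For efficiency, 0.1 RPM was added to RPF and to RNA, and the log2 ratio was centred on the median of genes reaching 1 RPM of RNA. The tissue ratio used the same pseudocount where mean RNA reached 1 RPM, and understates changes of low genes. Whole reads were estimated from the steps between low values, all of which lay within rounding of a multiple. Rounding is a large part of the step in RPF, whose read numbers are the less certain. Ratios have exact conditional (Clopper-Pearson) intervals and shares Wilson intervals, while the interval of an efficiency difference is a normal approximation from the read numbers. With 1 library per group no count test was possible. A symbol on several rows was represented by its most abundant row.

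Listed coding lengths were 6 nt shorter than the GENCODE coding sequence with its stop in all 72 genes. Copies were found with blastn of coding sequences against all GENCODE M21 transcripts.

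The members, lists and rules were chosen with earlier results of these data known. Named are the 4 highest and 4 lowest members in level per kilobase, in efficiency, in the RNA, RPF and efficiency differences and in 5′ UTR share (where many tie at 0 at the low end), those past 2-fold in the efficiency difference, Mrpl3, Mrpl44, Mrps22, Mrpl12, Mrps12, Mrps18a, Mrps18b, Mrps30 and Mrps36, and of each other list the 2 highest and 2 lowest by heart efficiency. Alternatives changed the pseudocount, the minimum, the choice of rows, the centring, the length trend, the abundant genes and the 5′ UTR rule. Scripts were tested on simulated data. They ran in Python 3.11.15 (pandas 2.3.3, numpy 2.4.6, scipy 1.17.1, statsmodels 0.14.6), with matplotlib 3.10.9 for plots.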

Additional observations from a re-analysis of the deposited data

Results flagged for a closer look

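RPF on the 3′ UTR, which belong to no comparison of the report, reached at least 1 RPM in either tissue in 7 of the 72 genes, above the 0.106 RPM (heart) and 0.105 RPM (TA) that a count of 0 allows. Mrpl15 had 3.29 RPM in heart and 3.36 in TA. Mrpl13 had 1.98 in heart and 0.31 in TA, Mrpl51 1.74 and 0.38, and Mrpl17 1.1 and 0.35. Mrpl33 had 0.81 in heart and 1.64 in TA, Mrpl20 0.14 and 1.05, and Mrps23 0.6 and 1.05.

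In 2 of the genes past 2-fold in the efficiency difference the tissues lay on opposite sides of the median gene. Mrpl13 had an efficiency of 0.98 in heart and -0.32 in TA, and Mrpl33 -0.45 in heart and 0.87 in TA. With 1 library of each kind per tissue these differences were not tested.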

How the results depend on the processing

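No paired analysis was possible because each group had 1 library, and for the same reason no replicate could be left out. Of the counts of members past a threshold, 72 stayed within 1.5 times of the reported count under the alternatives and 22 did not. No value past 2-fold changed sign. Without centring, 9 members were at least 2-fold above in heart efficiency, 3 below in TA efficiency and 2 lower in the efficiency difference. The shares of all genes were then 7.98%, 25.3% and 4.8%. With the length trend removed, 12 were above and 10 below in heart (13.7% and 15.9% of all genes) and 7 above and 6 below in TA (14.1% and 16.9%). Relative to the median gene 1 was higher in the RNA ratio (13.5% of all genes), and 6 were higher and 7 lower in the RPF ratio (11.9% and 12%). Without the 50 most abundant genes 3 were higher in RNA (15.9% of all genes), and 7 higher and 5 lower in RPF (13.7% and 10.7%). With a minimum of 5 RPM of RNA 2 of 71 were lower in the efficiency difference (1.54% of all genes). Leaving out the members with near-identical copies was an alternative chosen after seeing the data. Of the remaining 54, 2 were below in heart efficiency, 0 lower in RPF and 0 lower in the efficiency difference. The shares of all genes were 17.8%, 5.06% and 2.33%. Leaving out those whose exons overlap another gene, also chosen then, left 7 of 51 above in TA efficiency (15.4% of all genes). For 5′ UTR density at least that of the coding sequence, a 5′ UTR of at least 100 nt left 1 gene in heart and 0 in TA of 18 (19.7% and 14.6% of all genes), and division by the RNA density ratio gave 14 of 40 and 9 of 38 (50% and 41.2% of all genes). The length trend, the copies and the scale moved these counts, and whether they reflect measurement or biology was not tested. Depth limited single members little: the smallest count behind a coding value was 62 reads. The lack of a second library limited every comparison.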
